A study of Mus musculus with 32 samples.

Results

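The genes described here are 32 genes of glycolysis and of the response to hypoxia, measured by RNA sequencing in mouse dendritic cells that were differentiated from bone marrow. They are named by symbol among the 22216 genes of the deposited tables, a choice made with earlier results of these data known. They comprised 13 glycolytic enzymes, 5 genes of sugar and lactate transport or of glycolytic regulation, 3 glycogen enzymes, the hypoxia-inducible factor subunit Hif1a with 2 of the prolyl hydroxylases that act on it, and 8 other targets of that factor. All 32 passed the filter on low values.

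The cells came from C57BL/6 wild-type (WT) mice or from double-knockout (dKO) mice with the genotype Lmp7-/-Mecl1-/-, which lack LMP7 and MECL-1, products of Psmb8 and Psmb10. Both are catalytic subunits of the immunoproteasome, a proteasome variant of immune cells that shapes the peptides shown to T cells. Bone marrow was cultured with GM-CSF, harvested on day 9, and given lipopolysaccharide (LPS), a bacterial cell wall component, at 1 µg/mL for 1, 2 or 6 h or not at all (0 h). Each combination of genotype and time had 4 libraries, 32 in all in 8 groups. Whether those 4 came from separate mice or cultures is not in the labels, so p-values reflect only how these libraries varied, which may be technical variation. The genotype is that of the mice, so the cells lacked both subunits throughout culture.

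Glycolysis turns glucose into pyruvate, and lactate dehydrogenase turns pyruvate into lactate when oxygen is short or when flux is high. HIF-1 is a pair of proteins whose alpha subunit is hydroxylated by prolyl hydroxylases when oxygen is present, then ubiquitinated and degraded by the proteasome. When the alpha subunit is stable, HIF-1 binds a short sequence, ACGTG or GCGTG, near genes for glucose uptake, glycolysis, blood vessel growth and mitophagy. Dendritic cells given LPS are known to raise glycolytic flux within the first hours, partly through changes in enzyme activity rather than in RNA.

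The 250 bases before the RefSeq start site (assembly GRCm38.p6, a later build than the mm9 genome of the deposited tables) were searched for ACGTG and GCGTG on both strands. A promoter entry was found for 31 of the 32 genes, with 40 start sites, of which Pgm2 and Ero1l matched under the later symbols Pgm1 and Ero1a. ACGTG was in 52.5% of these 40 windows, beside 16.57% of all 32851 windows in the RefSeq table and 22.1% of the windows of genes tested here. Either motif was in 80% of the members' windows (27 of 31 genes), beside 38.6% of all windows and 56.26% of those of tested genes. The windows of the members were richer in G and C (median 64.83%) than all windows (52.67%) or those of tested genes (60.67%), and both motifs hold CG. The promoters of 5 genes are shown because these genes carry several of the results below, and they do not stand for all members. All 5 hold matches, whereas the windows of Gpi1, Tpi1, Gys1 and Gbe1 hold none. For Vegfa, also prominent below, the window of the first start site holds none, and that of the second holds 1 match to each motif. For Ldha, which has 2 RefSeq start sites, the promoter shown is that of the first. Capitals mark both motifs and their reverse complements, and a match is a description of the letters, not a bound site. The 2 motifs can share letters, and matches on the 2 strands can overlap and are counted apart.
Ldha: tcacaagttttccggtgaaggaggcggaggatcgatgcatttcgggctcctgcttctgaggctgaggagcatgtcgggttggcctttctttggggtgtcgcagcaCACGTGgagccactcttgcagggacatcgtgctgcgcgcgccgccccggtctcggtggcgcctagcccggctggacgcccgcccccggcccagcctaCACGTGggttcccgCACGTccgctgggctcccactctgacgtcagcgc
Slc2a1: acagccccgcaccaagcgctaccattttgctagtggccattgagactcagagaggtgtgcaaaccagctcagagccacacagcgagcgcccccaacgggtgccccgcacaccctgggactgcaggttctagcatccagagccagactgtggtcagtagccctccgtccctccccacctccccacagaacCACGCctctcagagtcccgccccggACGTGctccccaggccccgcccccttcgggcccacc
Bnip3: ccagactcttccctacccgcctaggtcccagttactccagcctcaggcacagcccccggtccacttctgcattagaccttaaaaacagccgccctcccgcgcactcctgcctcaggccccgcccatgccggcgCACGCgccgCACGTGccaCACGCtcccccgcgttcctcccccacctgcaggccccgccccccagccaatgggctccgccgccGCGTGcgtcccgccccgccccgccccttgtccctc
Hk2: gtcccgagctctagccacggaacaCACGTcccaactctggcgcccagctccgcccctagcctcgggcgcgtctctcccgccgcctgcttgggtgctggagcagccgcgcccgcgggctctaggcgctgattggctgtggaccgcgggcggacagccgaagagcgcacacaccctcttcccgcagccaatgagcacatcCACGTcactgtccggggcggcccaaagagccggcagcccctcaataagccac
Ankrd37: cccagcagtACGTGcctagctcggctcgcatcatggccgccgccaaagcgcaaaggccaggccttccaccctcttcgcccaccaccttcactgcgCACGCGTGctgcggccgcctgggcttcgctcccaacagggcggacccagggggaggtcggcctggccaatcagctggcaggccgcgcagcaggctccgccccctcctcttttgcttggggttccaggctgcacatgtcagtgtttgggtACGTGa
The Ldha window of the first start site (chr7:46845554-46845803, plus strand) held 5 matches to ACGTG and 0 to GCGTG, and that of the second (chr7:46846832-46847081, plus strand) held 0 and 1. The Slc2a1 window (chr4:119108495-119108744, plus strand) held 1 match to ACGTG and 1 to GCGTG. The Bnip3 window (chr7:138909507-138909756, minus strand) held 2 and 3. The Hk2 window (chr6:82774455-82774704, minus strand) held 2 and 0, and the Ankrd37 window (chr8:45999851-46000100, minus strand) held 2 and 2.

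A deposited column per gene, whose definition is not given in the sources used here, summed to 1.27 to 1.87 Gb per library if read as aligned bases. Psmb8 was at most 7.42 RPKM in dKO and at least 150.3 RPKM in WT, and Psmb10 at most 17.1 and at least 41.6. In 5 dKO libraries the profile correlated best with the WT mean of another time than the label gives, and in no WT library. Replicate 2 of dKO at 0, 1 and 2 h, as labelled, resembled WT at 1, 2 and 0 h most, and had Il6, an LPS-induced cytokine, at 1124, 1513 and 1.67 RPKM. Replicate 4 of dKO, as labelled, resembled WT at 6 h in the 2 h group and WT at 2 h in the 6 h group. All 5 kept their labels, and results that rest on them are given with and without them. Without them dKO had 2 libraries at 2 h and 3 at each of 0, 1 and 6 h, so 2 h values without the 5 rest on few libraries. All 10 dendritic cell markers were detected in every group, with a summed level of 6971 to 13570 RPKM, and 4 or 5 of the 10 were lower in dKO at each time (Batf3, a dendritic cell transcription factor, was lower at every time). Without the 5 libraries 7, 7, 5 and 9 of the 10 were lower at 0, 1, 2 and 6 h, and none was higher. Of all genes, 5.91% to 10.2% were lower with all libraries and 19.5% to 33.1% without the 5. At 0 h the 9 granulocyte markers in the table summed to 567 to 724 RPKM in WT and 205 to 410.0 in dKO (205 to 269.5 without the 5 libraries). The 4 eosinophil markers summed to 467 to 604 and 233 to 467 (233 to 298), and 5 proliferation genes to 66.2 to 82.6 and 32.5 to 53.4 (32.5 to 50.5). The 12 macrophage markers summed to 2134 to 2430 in WT and 1671 to 2175 in dKO at 0 h (1671 to 1820 without the 5), and to 763 to 1020 and 981 to 2280 at 6 h (981 to 1064). The sums of 6 T cell and 4 NK cell markers were at most 0.378 and 0.661 RPKM. In bulk samples, more cells of a type and more RNA per cell cannot be told apart, and the part of these differences in the results below was not tested. ERCC spike-in controls took 0.133% to 0.328% of the signal in WT libraries and 0.0943% to 0.127% in dKO libraries, and values were not scaled to them.

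RPKM is a read count divided by gene length and library size, so levels can be compared between genes. Differences are on the scale of log2(RPKM + 0.5), which understates changes of weakly expressed genes, with their standard errors (SE), and a gene was called at a limma p of less than 0.05 after Benjamini-Hochberg adjustment over 11154 genes. The median difference of all these genes was -0.19, -0.18, 0.09 and -0.15 for dKO against WT at 0, 1, 2 and 6 h. It was -0.42, -0.73 and -0.65 for 1, 2 and 6 h of LPS in WT and -0.41, -0.48 and -0.62 in dKO, and scaling by the median of ratios takes it to near 0. A fall with LPS of less than these sizes is therefore a fall in the share of the library, not a fall relative to the median gene.

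The genotype comparison asks how the genes differed between dKO and WT cells at a given LPS time. At 6 h, 14 of the 32 members were higher and 1 was lower in dKO, beside 4.55% of all genes called higher and 10.2% called lower. At 2 h, 15 were higher and 1 was lower (5.15% and 7.24% of all genes). At 0 h, 1 was higher and none lower (0.932% and 5.91%), and limma gave no member an unadjusted p of less than 0.05 in the lower direction. At 1 h, 2 were higher and 1 was lower (1.84% and 9.02%). With 1 library left out at a time, 8 to 20 members were called at 2 h (10 without WT replicate 3, 8 without WT replicate 4, 9 without dKO replicate 2) and 11 to 18 at 6 h. Shares of all genes are not given for these fits, so a change in the members cannot be told from a change in all calls. The 10 members higher at both 2 and 6 h were Hif1a and Egln1, Slc2a1, Hk2, Pgam1, Gbe1, Vegfa, Bnip3, Ero1l and P4ha1. Without the 5 libraries, 6, 13, 13 and 23 members were higher at 0, 1, 2 and 6 h and 1, 2, 2 and 2 were lower. The same fit called 6.71%, 9.79%, 9.29% and 13.9% of all genes higher and 19.5%, 29.5%, 23.9% and 33.1% lower. Hif1a, Hk2, Gpi1, Vegfa and Higd1a were higher at every time in it. After scaling by the median of ratios the counts were 2, 7, 13 and 19 higher and 0, 0, 1 and 1 lower, beside 1.84%, 4.26%, 8.65% and 8.28% of all genes higher and 3.06%, 6.21%, 9.65% and 7.91% lower.

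**Figure D1:**
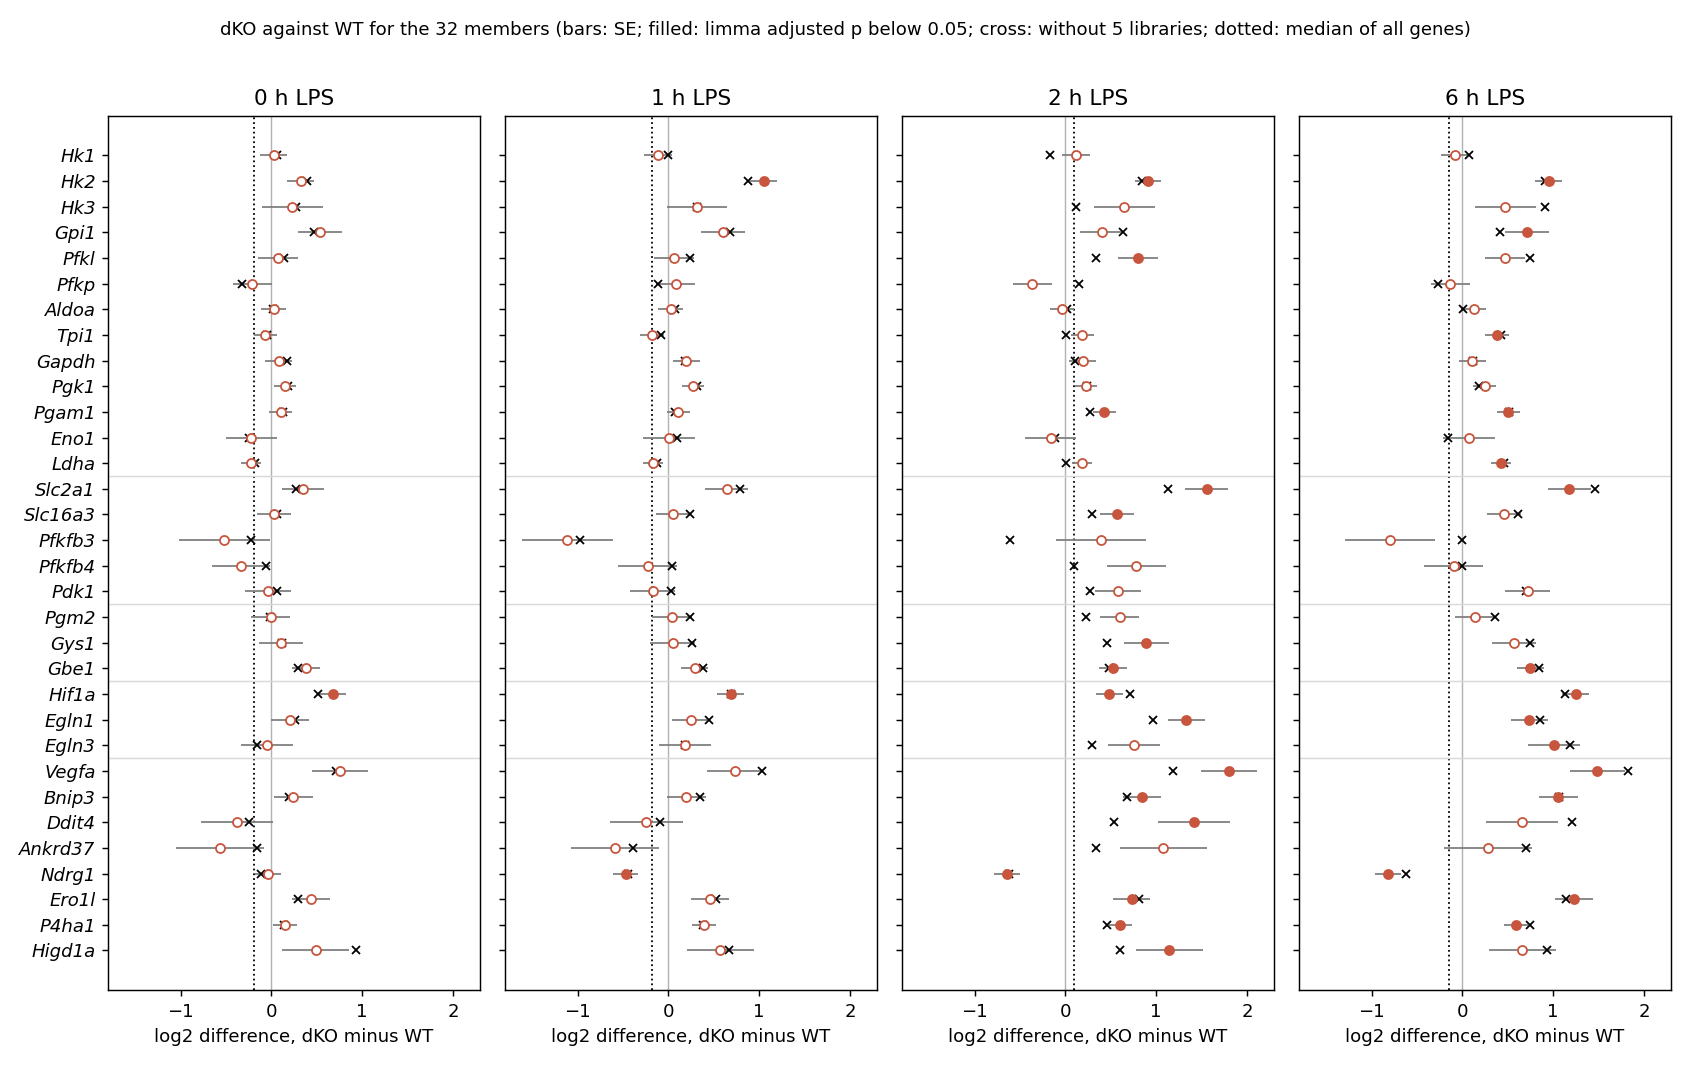
Log2 difference of dKO minus WT (x axis) for each of the 32 genes (rows, grouped by role) at 0, 1, 2 and 6 h of LPS. Circles are limma estimates with bars of 1 SE, filled where the adjusted p was below 0.05, crosses are the estimates without the 5 dKO libraries nearest to another time, and the dotted line is the median of all genes. Filled circles to the right of 0 number 1, 2, 15 and 14 at the 4 times, and Ndrg1 is the filled circle to the left at 1, 2 and 6 h.

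The 13 glycolytic enzymes and the 19 other members were counted apart. Of the enzymes, dKO had 0, 1, 3 and 5 higher at 0, 1, 2 and 6 h, and none was lower with all libraries, also at an unadjusted p of less than 0.05 or after median-of-ratios scaling. Leaving out the 5 libraries, 3, 5, 3 and 7 enzymes were higher and 1, 0, 0 and 1 lower, Pfkp being the lower one at 0 and 6 h. At 0 h limma gave 2 enzymes an unadjusted p of less than 0.05, both higher, and quantile normalization called 1 and median-of-ratios scaling none. The share of all genes at that unadjusted p was not counted. Of the others, 1, 1, 12 and 9 were higher and 0, 1, 1 and 1 lower, and without the 5 libraries 3, 8, 10 and 16 higher and 0, 2, 2 and 1 lower. The median difference at 6 h was 0.38 over the enzymes, 0.46 over transport and regulation, 0.57 over the glycogen enzymes, 1.01 over Hif1a and the hydroxylases and 0.66 over the other targets. At 2 h these medians were 0.19, 0.58, 0.60, 0.76 and 0.96, and without the 5 libraries 0.11, 0.28, 0.46, 0.71 and 0.57. At 6 h without them they were 0.41, 0.61, 0.74, 1.13 and 1.00.

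Hif1a (chr12:75008854-75048517 in mm9) encodes the oxygen-regulated subunit of HIF-1. At 6 h its RPKM was 32.3, 36.1, 33.5 and 28.2 in the 4 WT libraries and 75.8, 60.8, 79.0 and 100.2 in the 4 dKO libraries. Every dKO library was above every WT library, and the difference was 1.25 ± 0.15 (SE; limma adjusted p = 8.3e-07). At 0 h the WT values were 39.6, 36.6, 37.3 and 37.4 and the dKO values 49.98, 85.2, 57.6 and 54.9, again without overlap, and the difference was 0.68 ± 0.15 (SE; limma adjusted p = 0.0038). The highest value at 0 h was in replicate 2, one of the 5 libraries, and without the 5 libraries the difference was 0.51. At 1 h the groups stood at 56.4 ± 3.20 and 91.3 ± 7.19 RPKM (SD, n = 4), a difference of 0.69 ± 0.15 (SE; limma adjusted p = 0.0023). At 2 h the dKO values were 99.2, 57.5, 89.7 and 82.1 beside a WT mean of 57.6 ± 2.95, and the library labelled dKO 2 h replicate 2 lay within the WT range. That difference was 0.48 ± 0.15 (SE; limma adjusted p = 0.032), was 0.71 without the 5 libraries, and did not pass after median-of-ratios scaling (0.40). For this call, leaving out 1 library gave 0.38 to 0.64, and the call was lost without WT 2 h replicate 2, 3 or 4 or dKO 2 h replicate 1, 3 or 4. Hif1a was the one member called higher in dKO at all 4 times.

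With LPS, Hif1a rose in WT from 37.7 to 56.4 and 57.6 RPKM at 1 and 2 h and stood at 32.5 at 6 h. The rises were 0.57 ± 0.15 (SE; limma adjusted p = 0.0038) at 1 h and 0.60 ± 0.15 (SE; limma adjusted p = 7.7e-04) at 2 h, and the 6 h difference of -0.22 ± 0.15 did not pass (adjusted p = 0.19). In dKO the means were 61.9, 91.3, 82.1 and 78.9 RPKM, and the 6 h difference from 0 h was 0.36 ± 0.15 (SE; limma adjusted p = 0.034). For this rise, leaving out 1 library gave 0.23 to 0.52, and the call was lost without dKO 0 h replicate 1, 3 or 4 or dKO 6 h replicate 3 or 4. The difference between the genotypes' 6 h responses was 0.57 ± 0.21 (SE; limma adjusted p = 0.3), and 0.61 (adjusted p = 6.4e-04) without the 5 libraries.

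Egln1 and Egln3 encode prolyl hydroxylases, which mark HIF-1 alpha for degradation and are themselves HIF-1 targets. Egln1 at 2 h was 14.5, 12.5, 11.7 and 10.3 RPKM in WT and 28.1, 52.3, 20.8 and 31.8 in dKO. The groups did not overlap, and the difference was 1.33 ± 0.21 (SE; limma adjusted p = 4.8e-05), with 0.96 without the 5 libraries. At 6 h Egln1 was 14.1 ± 1.52 and 24.5 ± 6.93 RPKM, a difference of 0.74 ± 0.21 (SE; limma adjusted p = 0.015). Egln3 at 6 h was 32.0, 41.4, 40.4 and 22.5 RPKM in WT and 107, 96.4, 42.9 and 46.8 in dKO. The dKO libraries formed a high and a low pair, all above WT, and the difference was 1.01 ± 0.29 (SE; limma adjusted p = 0.015). The 2 h difference of Egln3, 0.76 ± 0.29, did not pass (adjusted p = 0.082). For Egln1 at 6 h, leaving out 1 library gave 0.58 to 0.85, and the call was lost without WT 6 h replicate 4 or dKO 6 h replicate 1. For Egln3, leaving out 1 library gave 0.79 to 1.23, and the call was lost without WT 6 h replicate 4 or dKO 6 h replicate 1 or 2. In WT, LPS lowered Egln1 from 44.8 to 14.1 RPKM (-1.64 ± 0.21, limma adjusted p = 2.7e-07) and Egln3 from 128 to 34.1 (-1.93 ± 0.29, limma adjusted p = 1.9e-06). Both falls passed after median-of-ratios scaling too (-0.96 and -1.24).

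**Figure D2:**
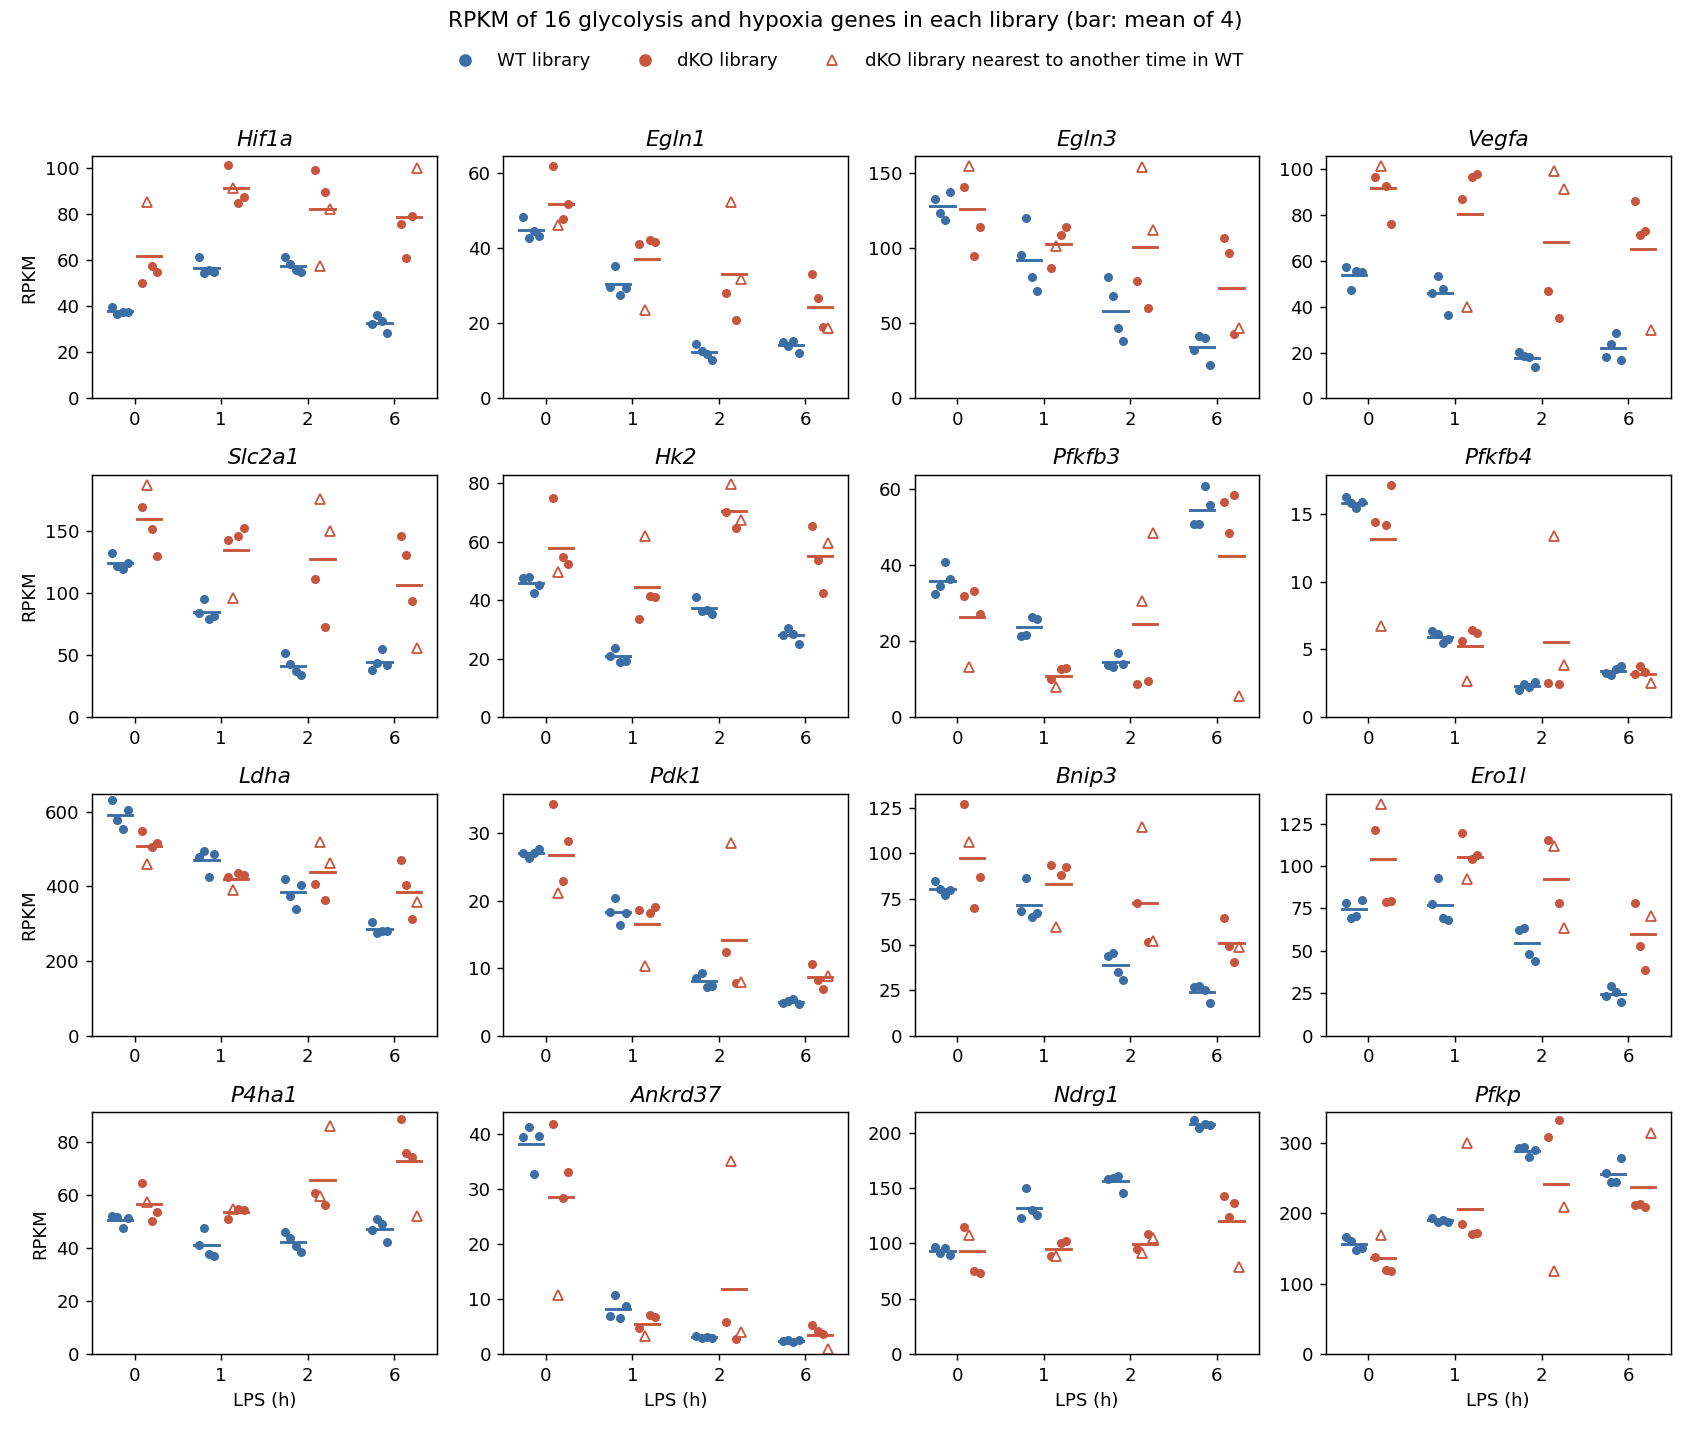
RPKM (y axis, from 0) of 16 of the genes in each of the 32 libraries by hours of LPS (x axis), WT in blue and dKO in red, with a bar at each group mean. Open triangles are the 5 dKO libraries nearest to another WT time. Hif1a stands higher in dKO at each time, with 1 of the dKO libraries at 2 h inside the WT range, whereas Ankrd37 and Pfkfb4 fall from 0 h to 6 h in both genotypes.

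Slc2a1 (chr4:118781350-118809934 in mm9) encodes GLUT1, a glucose transporter of the cell membrane. At 2 h it was 51.5, 42.7, 37.0 and 34.2 RPKM in WT and 111, 176, 72.7 and 150.3 in dKO. The lowest dKO library lay above the highest WT library, and the difference was 1.56 ± 0.24 (SE; limma adjusted p = 3.1e-05), with 1.13 without the 5 libraries. At 6 h the values were 37.6, 43.6, 54.7 and 41.6 in WT and 146, 131, 93.9 and 56.0 in dKO. The groups were apart, with the library labelled dKO 6 h replicate 4 just above the highest WT value, and the difference was 1.18 ± 0.24 (SE; limma adjusted p = 8.2e-04). In WT, LPS lowered Slc2a1 from 124 ± 5.59 to 44.4 ± 7.35 RPKM by 6 h (-1.49 ± 0.24, limma adjusted p = 4.3e-06). In dKO it fell from 159.7 ± 24.6 to 107 ± 40.3 (-0.66 ± 0.24, limma adjusted p = 0.014), a call that was lost without the 5 libraries (-0.30, adjusted p = 0.085) or after median-of-ratios scaling (-0.01). For this fall, leaving out 1 library gave -0.84 to -0.38, and the call was lost without dKO 6 h replicate 4.

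Slc16a3, the lactate exporter MCT4, was 56.1 ± 7.13 RPKM in WT and 85.6 ± 25.0 in dKO at 2 h. That difference, 0.57 ± 0.19 (SE; limma adjusted p = 0.045), did not pass without the 5 libraries (0.29), while leaving out 1 library gave 0.40 to 0.73, and the call was lost without any 1 of the 4 WT 2 h libraries or dKO 2 h replicate 1, 2 or 4. Pdk1, a kinase that holds back the entry of pyruvate into mitochondria, stood at 4.81, 5.09, 5.37 and 4.75 RPKM in WT and 10.7, 8.22, 6.86 and 8.82 in dKO at 6 h. The groups did not overlap, but the difference of 0.72 ± 0.25 did not pass (adjusted p = 0.054). It was 0.70 (adjusted p = 1.7e-04) without the 5 libraries.

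Pfkfb3 and Pfkfb4 encode enzymes that make and break fructose 2,6-bisphosphate, an activator of phosphofructokinase. Pfkfb3 in WT was 35.9, 23.8, 14.4 and 54.6 RPKM at 0, 1, 2 and 6 h. The fall at 2 h passed (-1.29 ± 0.50, limma adjusted p = 0.02) but not after median-of-ratios scaling (-0.52), and the 6 h difference from 0 h of 0.60 ± 0.50 did not (adjusted p = 0.27), although all 4 libraries at 6 h lay above all 4 at 0 h. At 1 h Pfkfb3 was 21.4, 21.6, 26.3 and 25.7 RPKM in WT and 10.1, 7.97, 12.6 and 12.8 in dKO. Every dKO library was below every WT library, while the difference of -1.11 ± 0.50 did not pass (adjusted p = 0.17). It did pass, at -0.98 (adjusted p = 7.9e-08), without the 5 libraries. At 2 h its sign turned, from 0.39 with all libraries to -0.62 (adjusted p = 2.9e-04) without the 5. Pfkfb4 fell with LPS in WT from 15.9 to 2.31 RPKM at 2 h (-2.54 ± 0.32, limma adjusted p = 2.3e-06). Its genotype difference at 2 h, 0.78 ± 0.32, did not pass (adjusted p = 0.11) and was 0.09 without the 5 libraries, although it passed after median-of-ratios scaling (0.71) or quantile normalization.

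Among the glycolytic enzymes, hexokinase catalyses the first step, and the 3 hexokinase genes did not move alike. Hk2 (chr6:82675021-82724448 in mm9) at 1 h was 20.9, 23.8, 19.0 and 19.3 RPKM in WT and 33.4, 61.8, 41.3 and 41.2 in dKO. The groups did not overlap, the highest value being that of the library labelled dKO 1 h replicate 2, and the difference was 1.05 ± 0.15 (SE; limma adjusted p = 8.8e-06), with 0.88 without the 5 libraries. At 2 h Hk2 was 41.0, 36.2, 36.6 and 35.4 in WT and 70.2, 79.8, 64.8 and 67.6 in dKO. At 6 h it was 28.1, 30.6, 28.5 and 25.2 and 65.3, 53.7, 42.4 and 59.6. The genotypes were apart at both times, with differences of 0.91 ± 0.15 (SE; limma adjusted p = 6.8e-05) and 0.95 ± 0.15 (SE; limma adjusted p = 3.4e-05). Hk1 was 31.5 ± 2.48 RPKM in WT and 30.5 ± 8.29 in dKO at 6 h and was called at no time. Hk3 rose with LPS in WT from 30.6 ± 1.71 to 64.4 ± 5.18 RPKM at 6 h (1.06 ± 0.33, limma adjusted p = 0.006). Its 6 h values in dKO were 114, 138, 114 and 35.5, of which the lowest was the library labelled dKO 6 h replicate 4. The genotype difference at 6 h, 0.47 ± 0.33, did not pass (adjusted p = 0.39), and without the 5 libraries it was 0.91 (adjusted p = 1.3e-09).

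Of the enzymes after hexokinase, Gpi1 (glucose-6-phosphate isomerase) stood at 175 ± 11.3 RPKM in WT and 309 ± 149 in dKO at 6 h. The difference was 0.71 ± 0.24 (SE; limma adjusted p = 0.047), was 0.41 without the 5 libraries and was lost after quantile normalization. For Gpi1, leaving out 1 library gave 0.41 to 0.91, and the call was lost without any 1 of the 4 WT 6 h libraries or dKO 6 h replicate 1, 2 or 4. Pfkl, the liver-type phosphofructokinase, was higher in dKO at 2 h (0.80 ± 0.22, limma adjusted p = 0.015), with dKO values of 32.3, 60.4, 26.8 and 53.6 RPKM beside a WT mean of 23.4 ± 2.45. The highest 2 of these were the libraries labelled replicates 2 and 4, and without the 5 libraries the difference was 0.33 (adjusted p = 0.012). For Pfkl, leaving out 1 library gave 0.62 to 1.00, and the call was lost without dKO 2 h replicate 2 or 4. Pfkp, the platelet-type phosphofructokinase, rose with LPS in both genotypes: from 156 ± 8.58 to 289 ± 6.69 RPKM at 2 h in WT (0.89 ± 0.21, limma adjusted p = 4.9e-04) and by 0.73 ± 0.21 (SE; limma adjusted p = 0.0064) in dKO. Without the 5 libraries its dKO means were 125 RPKM at 0 h (3 libraries) and 320 RPKM at 2 h (2 libraries). The 2 h response of dKO minus that of WT was -0.15 with all libraries, not called. It was 0.47 (limma adjusted p = 0.0011), higher in dKO, without the 5. Pfkp was called in no genotype comparison, and lower in dKO at 0 and 6 h without the 5 libraries (-0.32 and -0.27).

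The later enzymes showed smaller differences. Ldha (chr7:54101174-54110997 in mm9), a lactate dehydrogenase subunit, was 305, 274, 280.0 and 279.9 RPKM in WT and 469.6, 404, 312 and 359 in dKO at 6 h. The lowest dKO library was just above the highest WT library, and the difference was 0.42 ± 0.11 (SE; limma adjusted p = 0.0084), which was lost after quantile normalization. At 0 h Ldha was 630.2, 578, 553 and 604 in WT and 548, 460.5, 504 and 517 in dKO. Here every dKO library lay below every WT library, but the difference of -0.22 ± 0.11 did not pass (adjusted p = 0.27) and was close to the median of all genes. Ldha fell with LPS, with a difference of -1.05 ± 0.11 (SE; limma adjusted p = 3.0e-08) at 6 h in WT and of -0.41 ± 0.11 (SE; limma adjusted p = 0.0018) in dKO, and after median-of-ratios scaling the WT value was -0.36 and the dKO value turned to 0.24. The difference between these responses, 0.65 ± 0.16 (SE; limma adjusted p = 0.037), was the only one called among the members, and was lost after median-of-ratios scaling or quantile normalization. For it, leaving out 1 library gave 0.55 to 0.74, and the call was lost without any 1 of the 4 WT 0 h libraries, any 1 of the 4 WT 6 h libraries, dKO 0 h replicate 2, 3 or 4 or dKO 6 h replicate 1 or 2. Pgam1, a phosphoglycerate mutase, was 8.79 ± 0.254 RPKM in WT and 12.8 ± 2.19 in dKO at 6 h (0.51 ± 0.13, limma adjusted p = 0.0063). Its 2 h difference of 0.43 ± 0.13 (SE; limma adjusted p = 0.025) did not pass without the 5 libraries (0.27) or after median-of-ratios scaling (0.35), and for it leaving out 1 library gave 0.29 to 0.55, and the call was lost without WT 2 h replicate 3 or 4 or dKO 2 h replicate 2. Tpi1, triosephosphate isomerase, differed by 0.38 ± 0.13 (SE; limma adjusted p = 0.043) at 6 h. For Tpi1, leaving out 1 library gave 0.28 to 0.47, and the call was lost without any 1 of the 4 WT 6 h libraries or dKO 6 h replicate 1 or 2.

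Aldoa (aldolase), Gapdh, Pgk1 (phosphoglycerate kinase) and Eno1 (enolase) were called in no genotype comparison with all libraries, with differences from -0.22 to 0.27 over the 4 times. Pgk1 was higher at 1 h without the 5 libraries (0.31, adjusted p = 0.03), after median-of-ratios scaling (0.47) or after quantile normalization, and at 6 h after median-of-ratios scaling (0.41). In WT at 0 h, 8 of the 32 members were above 100 RPKM. Aldoa had the highest level of all members, 945 ± 24.4 RPKM at 0 h in WT. Gapdh, usually an abundant transcript, stood at 9.94 ± 0.616 RPKM. Its transcript shares stretches of at least 200 bases at 95% identity or more with 78 other genes of the GENCODE annotation, 74 of them pseudogenes, and how the authors assigned such reads is not given in the sources used here. Ldha and Pgk1 have 4 such pseudogenes each, Bnip3 has 3, Eno1 has 2, and Gpi1, Pgam1, Tpi1 and Higd1a have 1 each. Counting genes of any kind, Bnip3, Eno1 and Higd1a share such stretches with 5, 3 and 2 others. Gys1, Ndrg1 and Pfkp share them with 1 other gene each, not annotated as a pseudogene. The Eno1 entry also spans 127 bases. The levels of all these genes are therefore uncertain. No search result was obtained for Ero1l.

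The glycogen enzymes build a store of glucose. Gbe1, the branching enzyme, was 7.47, 8.57, 7.18 and 5.75 RPKM in WT and 17.0, 11.7, 11.8 and 10.1 in dKO at 6 h. The groups did not overlap, and the difference was 0.75 ± 0.15 (SE; limma adjusted p = 8.5e-04). At 2 h its difference was 0.53 ± 0.15 (SE; limma adjusted p = 0.019), which did not pass after median-of-ratios scaling (0.45) or quantile normalization. For it, leaving out 1 library gave 0.47 to 0.59, and the call was lost without WT 2 h replicate 3 or 4 or dKO 2 h replicate 4. Gys1, glycogen synthase, was 17.7, 17.6, 13.9 and 13.04 RPKM in WT and 26.7, 51.9, 17.1 and 29.9 in dKO at 2 h. The groups overlapped by 1 dKO library, the highest dKO value came from the library labelled replicate 2, and the difference of 0.89 ± 0.24 (SE; limma adjusted p = 0.014) did not pass without the 5 libraries (0.46). For Gys1, leaving out 1 library gave 0.62 to 1.14, and the call was lost without WT 2 h replicate 4 or dKO 2 h replicate 2. Gys1 fell with LPS in WT from 44.6 ± 2.93 to 15.3 ± 1.18 RPKM at 6 h (-1.52 ± 0.24, limma adjusted p = 5.1e-06). At 6 h its difference of 0.57 ± 0.24 did not pass (adjusted p = 0.13) but was 0.74 (adjusted p = 7.9e-04) without the 5 libraries. Pgm2, a phosphoglucomutase, was called in no genotype comparison with all libraries. It was higher at 6 h without the 5 libraries (0.36, adjusted p = 0.042), and quantile normalization called it higher at 2 h.

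Vegfa (chr17:46153943-46169326 in mm9), the growth factor for blood vessels, had the largest genotype differences of all members at 2 and 6 h. At 2 h it was 20.2, 18.3, 18.2 and 13.9 RPKM in WT and 46.8, 99.4, 35.0 and 91.4 in dKO. At 6 h it was 18.0, 23.7, 28.7 and 16.7 and 86.0, 71.5, 73.0 and 29.9. All dKO libraries were above all WT libraries at both times, with the library labelled dKO 6 h replicate 4 only just so. The differences were 1.802 ± 0.30 (SE; limma adjusted p = 1.3e-04) at 2 h and 1.49 ± 0.30 (SE; limma adjusted p = 0.001) at 6 h, and 1.19 and 1.82 without the 5 libraries. At 0 h the groups were apart too, at 53.9 ± 4.36 and 91.7 ± 10.99 RPKM, but the difference of 0.76 ± 0.30 did not pass (adjusted p = 0.15). It did without the 5 libraries (0.71, adjusted p = 0.0011). In WT, Vegfa fell with LPS at 2 h (-1.59 ± 0.30, limma adjusted p = 5.2e-05).

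Bnip3, a mitophagy receptor, was 26.5, 27.0, 24.8 and 18.0 RPKM in WT and 64.7, 49.4, 40.2 and 48.8 in dKO at 6 h. The lowest dKO value was above the highest WT value, and the difference was 1.06 ± 0.21 (SE; limma adjusted p = 9.0e-04). Ero1l, an oxidase that forms disulfide bonds in the endoplasmic reticulum, was 23.5, 29.5, 25.8 and 19.8 in WT and 78.0, 52.9, 38.7 and 70.4 in dKO at 6 h. The groups were apart again, with a difference of 1.23 ± 0.21 (SE; limma adjusted p = 1.2e-04). P4ha1, a subunit of collagen prolyl hydroxylase, was 46.8, 50.8, 49.1 and 42.2 in WT and 88.5, 75.8, 74.3 and 52.0 in dKO. Its lowest dKO library, the one labelled replicate 4, was just above the WT range, and the difference was 0.59 ± 0.13 (SE; limma adjusted p = 0.002). At 2 h these 3 genes differed by 0.84 ± 0.21, 0.73 ± 0.21 and 0.61 ± 0.13, all called. For Ero1l at 2 h, leaving out 1 library gave 0.61 to 0.89, and the call was lost without WT 2 h replicate 3 or 4 or dKO 2 h replicate 1 or 2. In WT, Bnip3 fell with LPS from 80.6 ± 3.15 to 24.1 ± 4.16 RPKM at 6 h (-1.74 ± 0.21, limma adjusted p = 1.8e-07) and Ero1l from 74.5 ± 5.17 to 24.7 ± 4.04 (-1.59 ± 0.21, limma adjusted p = 3.7e-07). P4ha1 stood at 50.7 ± 2.01 and 47.2 ± 3.73 RPKM at 0 and 6 h in WT. In dKO it rose by 0.34 ± 0.13 (SE; limma adjusted p = 0.02). For this rise, leaving out 1 library gave 0.24 to 0.49, and the call was lost without dKO 0 h replicate 3 or dKO 6 h replicate 1 or 2.

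Ddit4, an inhibitor of mTORC1 signalling, was 1.96, 2.33, 2.49 and 1.37 RPKM in WT and 3.68, 11.2, 2.63 and 12.5 in dKO at 2 h. The 2 high dKO values were those of the libraries labelled replicates 2 and 4, and the difference fell from 1.42 ± 0.40 (SE; limma adjusted p = 0.018) to 0.53 (adjusted p = 0.035) without the 5. For Ddit4 at 2 h, leaving out 1 library gave 1.10 to 1.78, and the call was lost without WT 2 h replicate 4 or dKO 2 h replicate 2 or 4. At 6 h it stood at 12.5, 10.5, 11.5 and 2.07 RPKM in dKO beside 4.75 ± 0.973 in WT. The library labelled dKO 6 h replicate 4 was below the WT range and the other dKO libraries above it, and the difference of 0.65 ± 0.40 (adjusted p = 0.3) became 1.21 (adjusted p = 3.0e-06) without the 5. Higd1a, a mitochondrial protein, was the lowest of the members, at 2.37 ± 0.507 RPKM in WT at 0 h over an entry of 980 bases. Its 2 h difference was 1.14 ± 0.37 (SE; limma adjusted p = 0.038), and 0.60 without the 5 libraries. For Higd1a, leaving out 1 library gave 0.73 to 1.44, and the call was lost without WT 2 h replicate 2, 3 or 4 or dKO 2 h replicate 2.

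Ankrd37, a small ankyrin repeat protein, showed the largest LPS response of the members. In WT it was 39.4, 41.2, 32.7 and 39.6 RPKM at 0 h and 6.996, 10.7, 6.67 and 8.68 at 1 h. At 6 h it was 2.46, 2.66, 2.18 and 2.66. The times did not overlap, and the difference from 0 h was -2.16 ± 0.48 (SE; limma adjusted p = 0.0012) at 1 h and -3.69 ± 0.48 (SE; limma adjusted p = 3.6e-07) at 6 h. In dKO the 6 h difference was -2.84 ± 0.48 (SE; limma adjusted p = 1.6e-05), and the 0 h and 2 h groups each held 1 library far from the other 3, at 10.7 and 35.1 RPKM, both labelled replicate 2. No genotype comparison called Ankrd37 with all libraries. It was higher in dKO at 6 h without the 5 libraries (0.70, adjusted p = 0.0027).

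Ndrg1, a stress-responsive gene of the same target group, went the other way from these genes. In WT it was 97.2, 91.3, 96.1 and 89.4 RPKM at 0 h and 211, 204, 208 and 207 at 6 h. In dKO it was 115, 107, 75.4 and 73.7 at 0 h and 143, 124, 137 and 78.7 at 6 h. All WT libraries at 6 h were above all dKO libraries at 6 h, while the 0 h ranges overlapped. It rose with LPS by 1.15 ± 0.14 (SE; limma adjusted p = 1.8e-07) in WT and by 0.37 ± 0.14 (SE; limma adjusted p = 0.021) in dKO. For the rise in dKO, leaving out 1 library gave 0.27 to 0.56, and the call was lost without dKO 0 h replicate 3 or 4 or dKO 6 h replicate 1, 2 or 3. Ndrg1 was lower in dKO, with differences of -0.64 ± 0.14 (SE; limma adjusted p = 0.0023) at 2 h and -0.82 ± 0.14 (SE; limma adjusted p = 1.5e-04) at 6 h, and without the 5 libraries of -0.62 and -0.63. The 1 h call (-0.47 ± 0.14, adjusted p = 0.027) was lost after median-of-ratios scaling (-0.27) or quantile normalization. For this call, leaving out 1 library gave -0.51 to -0.41, and the call was lost without WT 1 h replicate 2 or 3 or dKO 1 h replicate 1 or 2. The difference between the 6 h responses was -0.78 ± 0.20 (adjusted p = 0.055), and -0.51 (adjusted p = 0.014) without the 5.

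The LPS comparison asks how each gene changed from 0 h within a genotype. In WT, 2 members were higher and 8 lower at 1 h, 3 and 20 at 2 h, and 3 and 23 at 6 h. Of all genes, 6.84% were called higher and 45.5% lower at 1 h, 11.2% and 68.5% at 2 h, and 14.9% and 60.9% at 6 h. After scaling by the median of ratios the members split 4 and 4, 10 and 11, and 6 and 16, beside 15.1% and 13.2%, 30.7% and 31.1%, and 32.6% and 33.8% of all genes. The 5 libraries, all dKO, enter the shared estimate of spread, and without them the WT counts were 4 and 17, 3 and 25, and 4 and 26, beside 11% and 68.8%, 14.3% and 75%, and 18.6% and 69.7% of all genes. The members higher in WT with all libraries were Hif1a and Ndrg1 at 1 h, Pfkp, Hif1a and Ndrg1 at 2 h, and Hk3, Pfkp and Ndrg1 at 6 h, and these kept their sign under both other scalings. In dKO, 2 were higher and 8 lower at 1 h, 2 and 11 at 2 h, and 5 and 18 at 6 h, beside 5.82% and 44.1%, 9.17% and 53.8%, and 14.7% and 60.2% of all genes. Without the 5 libraries these were 3 and 12, 2 and 20, and 6 and 18, and after median-of-ratios scaling 4 and 3, 7 and 3 and 8 and 6. All genes split 9.48% and 67.9%, 13.9% and 72.4%, and 18.8% and 68.6% without the 5, and 12.8% and 11.2%, 22.1% and 18.5%, and 31.7% and 33.8% with that scaling. Within each genotype all times are set against the same 0 h libraries of that genotype, so its comparisons are not independent of each other.

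The enzymes and the other members differed in the size of the WT response. At 2 h the median was -0.32 over the 13 enzymes, of which 1 was higher and 5 lower, and -1.29 over the 19 others, of which 2 were higher and 15 lower, beside -0.73 over all genes. At 6 h the medians were -0.83 and -1.49, beside -0.65. The enzymes Aldoa, Tpi1, Pgam1 and Ldha, called lower at 2 h in WT with differences of -0.30, -0.66, -0.74 and -0.63, turned to 0.49, 0.13, 0.03 and 0.17 after median-of-ratios scaling. The falls of Pdk1 (-1.69 at 2 h and -0.92 after that scaling), Pfkfb4 (-2.54 and -1.81), Egln1 (-1.84 and -1.06), Slc2a1 (-1.59 and -0.80) and Ankrd37 (-3.43 and -2.68) were larger than that of the median gene on both scales.

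**Figure D3:**
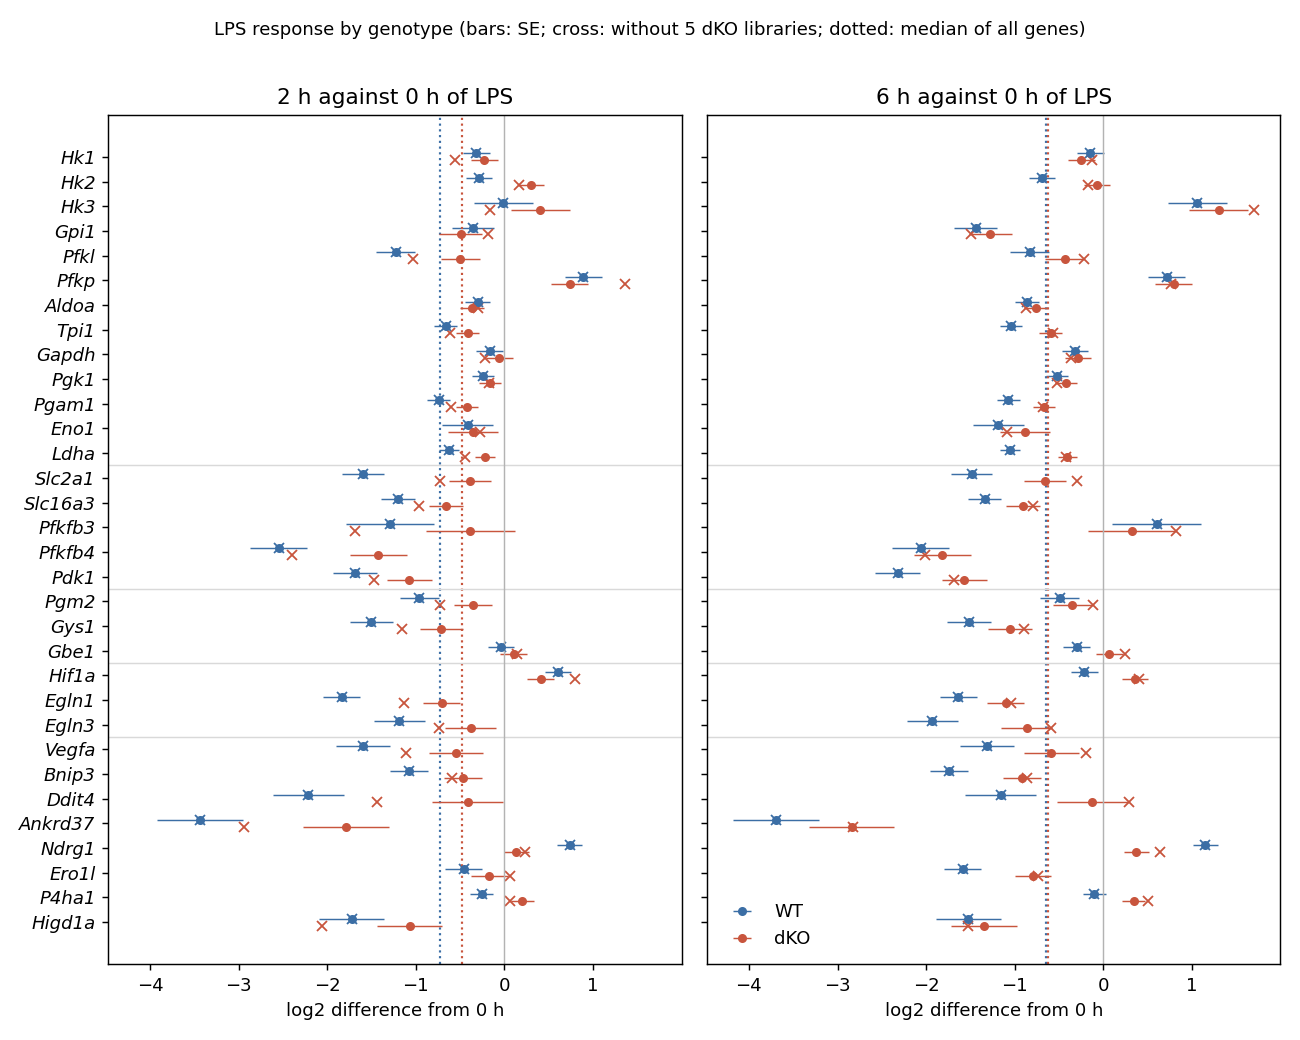
Log2 difference from 0 h (x axis) for each of the 32 genes (rows, grouped by role) after 2 h and 6 h of LPS, WT in blue and dKO in red. Circles are limma estimates with bars of 1 SE, crosses leave out the 5 dKO libraries, and dotted lines are the medians of all genes in each genotype. Ankrd37 lies farthest to the left in both genotypes, and Ndrg1 and Pfkp lie to the right of 0 in WT.

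The difference between the genotypes' LPS responses was tested for each member. With all libraries, 0 of 32 members were called at 1 h and 0 at 2 h, beside 0.0359% and 0.305% of all genes in limma, and 1, Ldha, at 6 h, beside 0.923%. Unadjusted p-values were below 0.05 for 2, 12 and 12 members, and the counts called after median-of-ratios scaling were 0, 0 and 0. How many of all genes had an unadjusted p that low was not counted, so those member counts cannot be judged against a background. Without the 5 libraries, 1, 3 and 19 members were called, beside 1.81%, 5.64% and 20.3% of all genes. At 6 h 18 of these had a higher response in dKO, that is a smaller fall, a larger rise, or a rise where WT fell. The remaining 1, Ndrg1, had a lower response. Of all genes, 9.81% were called with a higher and 10.5% with a lower response. The 18 were Hk2, Hk3, Pfkl, Tpi1 and Ldha, Slc2a1, Slc16a3 and Pdk1, Gbe1, Hif1a, Egln1 and Egln3, Vegfa, Bnip3, Ddit4, Ankrd37, Ero1l and P4ha1. Leaving out these 5 libraries was chosen after the data were seen, and it raised the share of all genes called as well.

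Other genes of the same pathways, from lists of general knowledge, were counted for comparison. Of all genes, 0.932%, 1.84%, 5.15% and 4.55% were called higher in dKO at 0, 1, 2 and 6 h. The shares called lower were 5.91%, 9.02%, 7.24% and 10.2%. Without the 5 libraries, 13.9% of all genes were higher and 33.1% lower at 6 h. Of 17 tested glycolysis genes outside the members, 2 were higher and 3 lower in dKO at 6 h, with a median of 0.01, and 3 were higher and 7 lower without the 5 libraries. The higher ones were Slc16a1, a lactate and pyruvate transporter, at 1.04 RPKM in WT and 3.56 in dKO (1.29 ± 0.25, limma adjusted p = 7.3e-04), and Pfkm, the muscle-type phosphofructokinase (0.87 ± 0.21, limma adjusted p = 0.0045). Eno3, a muscle enolase, was lower at every time (at 0 h not after median-of-ratios scaling), for example 10.3 and 5.35 RPKM at 6 h (-0.88 ± 0.17, limma adjusted p = 5.2e-04). Of 23 other hypoxia genes, 1 was higher at 1 h and 4 at each of 2 and 6 h, and 2, 3, 2 and 2 were lower at 0, 1, 2 and 6 h. Without the 5 libraries 13 were higher and 3 lower at 6 h. Higher ones were Kdm3a, a histone demethylase, at 2 h (1.05 ± 0.19, limma adjusted p = 2.2e-04), Ak4, a mitochondrial adenylate kinase, at 2 h (1.796 ± 0.34, limma adjusted p = 4.1e-04), Stc2, a secreted glycoprotein, at 6 h (1.08 ± 0.33, limma adjusted p = 0.023) and Hmox1, heme oxygenase, at 6 h (0.82 ± 0.15, limma adjusted p = 3.7e-04). Car9, a carbonic anhydrase regarded as a typical HIF-1 target, was lower at 6 h, at 2.25 and 0.846 RPKM (-1.10 ± 0.26, limma adjusted p = 0.0037), as was Anxa2, a membrane-binding annexin (-0.61 ± 0.10, limma adjusted p = 6.2e-05), which was not called after median-of-ratios scaling (-0.44). Tfrc, the transferrin receptor, was lower at 0 h (-1.15 ± 0.24, limma adjusted p = 0.002).

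Of 14 other glycogen genes, 1 was higher at 1 h, 4 were higher at 2 h and 1 was lower at each time. Without the 5 libraries 1 was higher and 5 lower at 6 h, beside 13.9% and 33.1% of all genes. Ppp1r3b, which brings protein phosphatase to glycogen, was 1.43 RPKM in WT and 8.13 in dKO at 1 h (2.14 ± 0.37, limma adjusted p = 1.5e-04). Gyg, the primer of glycogen synthesis, was the lower gene at every time, for example -0.55 ± 0.10 (SE; limma adjusted p = 2.4e-04) at 1 h, but after median-of-ratios scaling it was called at 2 h alone. Of 27 genes of pyruvate entry and the TCA cycle, 1 was higher at 1 h, and 1 was higher and 1 lower at 6 h. Without the 5 libraries 2 were higher and 14 lower at 6 h, beside the same shares of all genes. Pdp1, which reactivates pyruvate dehydrogenase, was the higher gene, for example at 1 h (1.14 ± 0.22, limma adjusted p = 5.4e-04), and Pdha1, a subunit of that enzyme, was lower at 6 h (-0.40 ± 0.13, limma adjusted p = 0.043). Medians of these lists at 6 h were 0.23 for hypoxia, 0.08 for glycogen and -0.04 for the TCA cycle, beside -0.15 for all genes. 

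**Figure D4:**
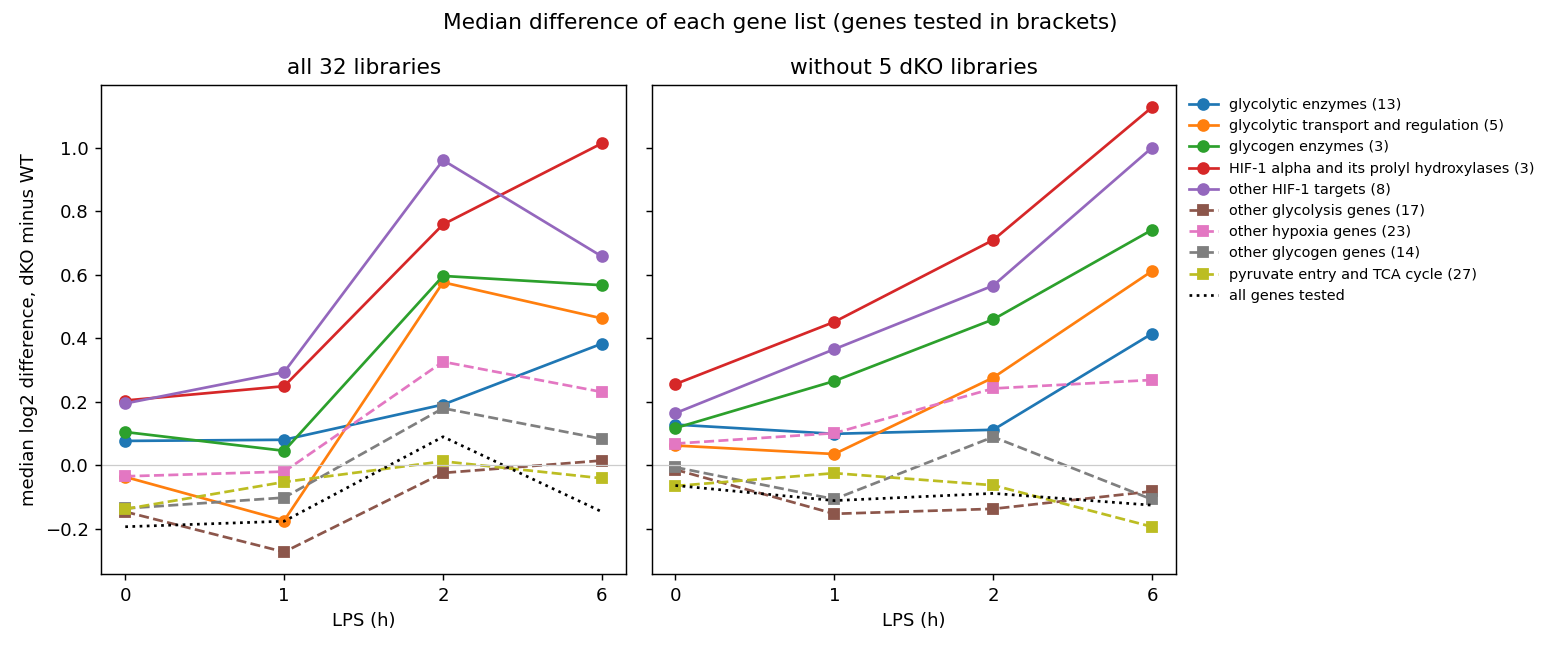
Median log2 difference of dKO minus WT (y axis) of each gene list at 0, 1, 2 and 6 h of LPS (x axis), with all 32 libraries on the left and without the 5 dKO libraries on the right; circles are the members by role, squares the other lists and the dotted line all genes tested. Hif1a with the hydroxylases and the other HIF-1 targets have medians of 1.01 and 0.66 at 6 h with all libraries, and the glycolytic enzymes 0.38.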

How the data were processed

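The deposited tables held 1 value per gene in RPKM, made by the authors from TruSeq RNA libraries. Per the submitters' processing notes, the tool was CASAVA 1.8.2 and the build mm9. A further deposited column per gene, a coverage signal whose definition is not given in the sources used here, was summed per library as a measure of depth (1.27 to 1.87 Gb if it holds aligned bases). Alignment settings and strand use are not given in the sources used here. No counts were used, so counting error per gene is unknown.

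The 92 spike-in entries were left out of 22308, leaving 22216 genes. Values were log2(RPKM + 0.5), for genes of at least 1 RPKM in at least 4 of 32 libraries, which left 11154. limma 3.58.1 (R 4.3.3) fitted the 8 group means with a trended prior, 24 residual degrees of freedom and 13 contrasts, two-sided, with Benjamini-Hochberg adjustment per contrast over all genes tested. Tables and plots used Python 3.11.15, pandas 2.3.3, numpy 2.4.6 and matplotlib 3.10.9, and transcript copies were found with blastn 2.17.0.

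The members and lists were chosen with earlier results of these data known. Every member could be named, and of other pathway lists up to 4 genes with the smallest adjusted p in a comparison. Alternatives were other pseudocounts (0.1 or 1), other scalings (by the median of ratios, or quantile normalization), other filters (none, or 5 RPKM), the replicate number as a block, and each library left out. Leaving out the 5 dKO libraries nearest to another WT time (11114 genes, 19 residual degrees of freedom) was added after the data were seen. It left 2 dKO libraries at 2 h and 3 at each of 0, 1 and 6 h.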

Additional observations from a re-analysis of the deposited data

Results flagged for a closer look

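In 19 of 256 groups of 4 libraries, 1 library stood far from the other 3 by Dixon's test, where chance gives about 1 in 20 groups. Of these, 14 lay in the 5 dKO libraries nearest to another WT time, 8 of them in the library labelled dKO 1 h replicate 2. That library was low for Gpi1 (597 RPKM beside 719 to 738 in the other 3), Pfkl (30.2 RPKM beside 47.2 to 50.03), Tpi1 (226 RPKM beside 297 to 304) and Slc16a3 (73.5 RPKM beside 119 to 127). It was also low for Pdk1 (10.3 RPKM beside 18.2 to 19.1), Egln1 (23.6 RPKM beside 41.2 to 42.3) and Bnip3 (59.5 RPKM beside 88.0 to 93.5), and high for Pfkp (299 RPKM beside 171 to 184).

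The library labelled dKO 2 h replicate 2 was high for Pfkfb4 (13.4 RPKM beside 2.42 to 3.87) and Ankrd37 (35.1 RPKM beside 2.71 to 5.82), the members that fell most at 2 h of LPS in WT. The library labelled dKO 2 h replicate 4 was high for Hk3 (147 RPKM beside 32.1 to 33.5), which rose by 6 h in WT, and for P4ha1 (85.8 RPKM beside 56.1 to 60.6). Pfkp was high in dKO 6 h replicate 4 (313 RPKM beside 208 to 214), and Higd1a low in dKO 0 h replicate 2 (1.07 RPKM beside 4.65 to 5.30).

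The other 5 lay in libraries nearest to their own time. Gys1 was high in WT 1 h replicate 2 (40.1 RPKM beside 31.8 to 33.2) and low in WT 6 h replicate 4 (13.5 RPKM beside 15.8 to 15.98). Bnip3 was high in WT 1 h replicate 2 (86.5 RPKM beside 65.3 to 68.6), Ddit4 low in WT 1 h replicate 4 (4.20 RPKM beside 5.53 to 5.75) and P4ha1 low in dKO 1 h replicate 1 (51.0 RPKM beside 54.1 to 54.6).

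The 6 h LPS response of Ldha differed between dKO and WT by 0.65 ± 0.16 (SE; limma adjusted p = 0.037) over 16 libraries, the only member for which the difference between the genotypes passed with all libraries.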

How the results depend on the processing

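Values here are numbers of members called, then log2 differences. For the genotype and LPS comparisons, shares of all genes without the 5 libraries and after median-of-ratios scaling are in the Results. Shares for the other settings are not given, so a change in the members cannot be told there from a change in all calls. A pair of gene and comparison counted as unchanged if it kept its side of the threshold and, where either fit called it, its direction. Pairs called in neither fit could change sign. Of the 416 pairs, 414 were unchanged with a pseudocount of 0.1, 413 with 1, 402 with no filter and 400 with the replicate block. With a filter of 5 RPKM, 401 of those that could be fitted were unchanged. The count was 366 with quantile normalization, 331 with median-of-ratios scaling and 322 without the 5 libraries. The counts of members called, 1, 3, 16 and 15 for dKO against WT at 0, 1, 2 and 6 h, became 2 and 7 at 0 and 1 h with median-of-ratios scaling, 3 at 0 h with quantile normalization, and 7, 15 and 25 at 0, 1 and 6 h without the 5 libraries. Without the 5, WT at 1 h went from 10 to 21 (8870 of 11114 genes in all), dKO at 2 h from 13 to 22, and the differences of response from 0, 0 and 1 to 1, 3 and 19. Median-of-ratios scaling took dKO at 6 h from 23 to 14 and the 6 h difference of response to 0, and a pseudocount of 1 or no filter took the latter to 2. The labels say nothing of what a replicate number shares, so pairing was not assumed. Deviations of same-numbered libraries correlated above 0.1 in 16 of 24 pairs within WT, 5 of 24 within dKO and 1 of 16 between them. All 16 of 16 WT libraries and 0 of 16 dKO libraries correlated best with their own number, a hint from the data of a shared factor across the WT times. The dKO deviations were taken from group means that included the 5 libraries nearest to another time. The dKO counts therefore cannot show whether dKO libraries share such a factor. With the replicate block, LPS in WT gave 8, 22 and 26 members in place of 10, 23 and 26, dKO at 1 h went from 10 to 6 and the 6 h difference of response from 1 to 0. Leaving out 1 library at a time gave 1 in every case, 2 to 4, 8 to 20 and 11 to 18 for dKO against WT at 0, 1, 2 and 6 h (at 2 h 10 without WT replicate 3, 8 without WT replicate 4 and 9 without dKO replicate 2). It gave 6 to 9, 21 to 24 and 25 to 27 for LPS in WT (6 without WT 1 h replicate 3), and 4 to 11, 6 to 18 and 20 to 26 in dKO (4 or 5 without dKO 0 h replicate 1, 3 or 4 or dKO 1 h replicate 2, and 6 without dKO 2 h replicate 3). For the differences of response it gave 0, 0 to 3 (3 without dKO 2 h replicate 3) and 0 to 2. Changes of sign are listed here only where the fit as reported or the alternative called the gene. A median-of-ratios scale moves the median of all genes to near 0, and turned these log2 differences from negative to positive: WT 1 h, Tpi1 0.31, Ldha 0.15 and P4ha1 0.16. In WT at 2 h they were Hk1 0.46, Hk2 0.49, Aldoa 0.49, Tpi1 0.13, Gapdh 0.58, Pgk1 0.54, Pgam1 0.025, Ldha 0.17, Gbe1 0.71, Ero1l 0.33 and P4ha1 0.53. In WT at 6 h they were Hk1 0.53, Pgk1 0.15, Pgm2 0.19 and P4ha1 0.58. In dKO they were Hk2 0.070 and Ldha 0.20 at 1 h, Aldoa 0.13, Tpi1 0.088, Gapdh 0.42 and Pgam1 0.066 at 2 h and Hk1 0.39, Hk2 0.57, Tpi1 0.052, Pgk1 0.21 and Ldha 0.24 at 6 h. Quantile normalization turned Gapdh 0.59 and Gbe1 0.74 in WT at 2 h and Gapdh 0.37 at 6 h. Without the 5 libraries Pfkfb3 -0.62 turned for dKO against WT at 2 h and Pfkp 0.47 for the 2 h difference of response. The cause of these changes was not tested. The genotype calls that held under every alternative and every library left out were Hif1a at 0 h, Hk2 and Hif1a at 1 h, 7 of 16 at 2 h (Hk2, Slc2a1, Egln1, Vegfa, Bnip3, Ndrg1 and P4ha1) and 10 of 15 at 6 h (Hk2, Pgam1, Slc2a1, Gbe1, Hif1a, Vegfa, Bnip3, Ndrg1, Ero1l and P4ha1). Depth per gene is unknown from RPKM, so a weak gene such as Higd1a is limited by counting error that could not be computed.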
